A study of Homo sapiens with 6 samples.

Results

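Lysosomal gene expression was examined in NCI-H1975 cells, an established line from a human lung adenocarcinoma, across 40 genes that encode hydrolases, membrane proteins, proton pump subunits and TFE transcription factors of the lysosome. The genes were given as a list of symbols, each of the 40 was found by its Ensembl identifier among the 60960 features of the deposited expression table. They were divided by role into 9 cathepsins and peptidases, 12 glycan hydrolases, 6 genes of lipid hydrolysis and lipid handling, 6 membrane proteins, 5 proton pump genes and 2 TFE factors. RNA was sequenced from 3 libraries of cells labelled siNC, a control small interfering RNA, and 3 labelled siGFPT2, a small interfering RNA against GFPT2. GFPT2 encodes an enzyme at the entry of the hexosamine pathway, which makes the sugar nucleotide used to build the glycans of lysosomal proteins. All 6 samples come from 1 cell line, and their common extraction text mentions almonertinib, EGF and knockdown of EGFR, although the treatment labels hold none of these. No label gives the dose, duration or sequence of either small interfering RNA. No label says that the replicates of a group were separate cultures, so the spread behind each p-value may be technical.

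The lysosome is the acidic compartment in which cells break down proteins, glycans and lipids taken up from outside or delivered by autophagy. Most of its soluble hydrolases are glycoproteins that receive a mannose phosphate tag in the Golgi and are sorted to the lysosome by receptors for that tag, while a proton pump in the membrane acidifies the lumen. TFEB and TFE3 are transcription factors that bind E-box sequences of the CLEAR type near the starts of many lysosomal genes, and the kinase mTORC1 keeps them out of the nucleus when nutrients are plentiful.

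The CLEAR sequence was searched for in the promoters, since it is the feature that ties the hydrolases, membrane proteins and pump to the TFE factors of the same list. RefSeq promoters on GRCh38.p14, running from 250 bases before to 50 bases after the gene start, were at hand for 28 of the 40 genes. For each gene only the first promoter listed was searched, so a motif at another start was not counted. Missing were CTSB, CTSS, HEXA, NAGLU, SGSH, ASAH1, ARSA, PSAP, LAMP2, ATP6V1A, ATP6V1H and ATP6V1B2. The search covered 3 nested motifs, each of which reads the same on both strands: the E-box CACGTG, the core TCACGTGA, and the full motif, which is the core with G before it and C after it. The E-box was in 9 of the 28 promoters (32.1%), against 7.43% of 27305 RefSeq promoters and 10.3% of the 9129 promoters whose gene was tested here. The core was in 6 (21.4%, against 1.04% and 2.11%), and the full motif in 3 (10.7%, against 0.381% and 0.843%). CLEAR sequences are already known from lysosomal genes, so these shares describe the list and carry no test. The windows of 60 bases below show the core in the 6 genes that hold it, with the core in capitals.
GAA, the acid glucosidase of glycogen, upstream copy, chr17:80101478-80101537, plus strand: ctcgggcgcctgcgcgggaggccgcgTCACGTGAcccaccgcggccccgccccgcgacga
GAA, downstream copy, chr17:80101523-80101582, plus strand: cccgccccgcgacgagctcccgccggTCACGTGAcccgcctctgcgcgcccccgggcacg
GALNS, a sulfatase of keratan sulfate, chr16:88857089-88857148, minus strand: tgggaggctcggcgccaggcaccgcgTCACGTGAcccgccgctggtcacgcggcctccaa
MCOLN1, the lysosomal calcium channel, chr19:7522583-7522642, plus strand: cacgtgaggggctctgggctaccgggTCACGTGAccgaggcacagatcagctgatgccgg
LAMP1, a coat glycoprotein of the lysosomal membrane, chr13:113297184-113297243, plus strand: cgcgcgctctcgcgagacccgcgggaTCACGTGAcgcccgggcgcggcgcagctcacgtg
CTSA, the protective carboxypeptidase, chr20:45891283-45891342, plus strand: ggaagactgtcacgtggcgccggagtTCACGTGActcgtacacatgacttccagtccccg
ATP6V0D1, a membrane sector subunit of the proton pump, chr16:67481184-67481243, minus strand: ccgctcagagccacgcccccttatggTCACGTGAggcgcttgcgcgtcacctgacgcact
The first base of the core lay at positions -77 and -32 from the start in GAA, -175 in GALNS, -42 and -15 in MCOLN1, -29 and -2 in LAMP1, -26 in CTSA and -60 in ATP6V0D1. GALNS held it farthest from the start and LAMP1 nearest. LAMP1 held 6 E-boxes in its 300 bases, and CTSD, NEU1 and CD63 each held 1 E-box without the core. A match describes letters in this window and is not a measured binding site.

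The targeted gene did not separate the labels. GFPT2 stood at 10.13, 9.30 and 8.28 FPKM in the siNC libraries and at 8.94, 7.58 and 8.72 in the siGFPT2 libraries, where FPKM is fragments per kilobase of gene length, scaled to library size. Its log2 fold change on the log2(FPKM + 0.1) scale was -0.13, with a 95% interval of -0.43 to 0.17 (limma adjusted p = 0.9999; exact two-sided permutation p = 0.4, where 0.1 is the smallest possible). Below, siNC and siGFPT2 stand for the libraries labelled so, and every direction rests on these labels. Depth lay between 21899321 and 27234880 counted fragments per library. siNC replicate 3 and siGFPT2 replicate 2 stood apart from the other libraries: their deviations from the mean of the 6 libraries correlated across all features tested (r = 0.71), and each correlated negatively with those of every other library. Epithelial markers were present, with 10 of 10 at 1 FPKM or more in every library and a summed level of 1686 to 2358 FPKM in siNC and 1731 to 2144 in siGFPT2. Of 12 markers of macrophages, which carry many lysosomes, 2 were at 1 FPKM or more in 5 libraries and 4 in siGFPT2 replicate 1, with sums of 9.26 to 9.80 FPKM in siNC and 9.32 to 13.0 in siGFPT2. The 2 in every library were CSF1R, at 4.44 to 6.36 FPKM, and CD14, at 1.87 to 3.20. The pan-leukocyte gene PTPRC did not exceed 0.01 FPKM, while C1QB stood at 1.92 and CD163 at 0.57 in siGFPT2 replicate 1, against at most 0.66 and 0.02 elsewhere. C1QA was also highest in that library, at 1.12, whereas CD14 was lowest there. Of 8 fibroblast markers 2 reached 1 FPKM, with sums of 9.5 to 11.5 in siNC and 9.62 to 13.6 in siGFPT2, and of 6 endothelial markers none did, with sums of 1.06 to 1.31 and 1.07 to 1.33. COL3A1 was 0.88 FPKM in siGFPT2 replicate 1 and at most 0.02 elsewhere. COL1A1 and COL1A2 were highest in that library too, at 8.23 and 3.04 FPKM, whereas THY1 was lowest there, at 0.40. The part of these transcripts in the results below was not tested, and in bulk RNA fewer cells of a type and less RNA per cell cannot be told apart.

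None of the lysosomal genes was called as different between siNC and siGFPT2. Of the 40 genes, 39 had a mean of at least 1 FPKM and were tested, and 0 passed limma's test at an adjusted p of 0.05. Over all 12896 features tested the share called was 0%. An unadjusted limma p under 0.05 was reached by 0 of the 39, against 0.651% of all features. Fold changes ran from -0.12 for CTSZ to 0.28 for LIPA on the log2 scale, with 23 above 0 and 16 below. That split depended on scaling: 9 of the 39 were above 0 after centring on library medians, 16 with limma-voom on recovered reads and 19 with quantile normalization. Centring also put the median of each role described below under 0, so none of these medians gives a direction. Their median was 0.017, and that of all features was 0.033, of which 61.4% lay above 0. LIPA was the only member whose groups did not overlap, with siGFPT2 higher, which held for 2.16% of all features in that direction, 1.36% in the other and 3.53% in either.

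The data bounded the size of a difference for most of these genes. The 95% interval excluded a change of 1.5-fold in either direction for 35 of the 39, against 61.1% of all features, and a change of 2-fold for all 39. The 4 exceptions at 1.5-fold were CTSD, IDS, NPC1 and LIPA. CTSD, IDS and NPC1 had wide intervals, and siNC replicate 3 and siGFPT2 replicate 2 were their extreme libraries, whereas LIPA had its interval to one side, from -0.03 to 0.59. The count of 35 depended on the fit. It was 28 with the replicate number as a block, 29 to 33 with 1 library left out and 37 with quantile normalization. A p above the threshold does not show that the groups were alike, and the interval gives what these 6 libraries allow.

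**Figure D1:**
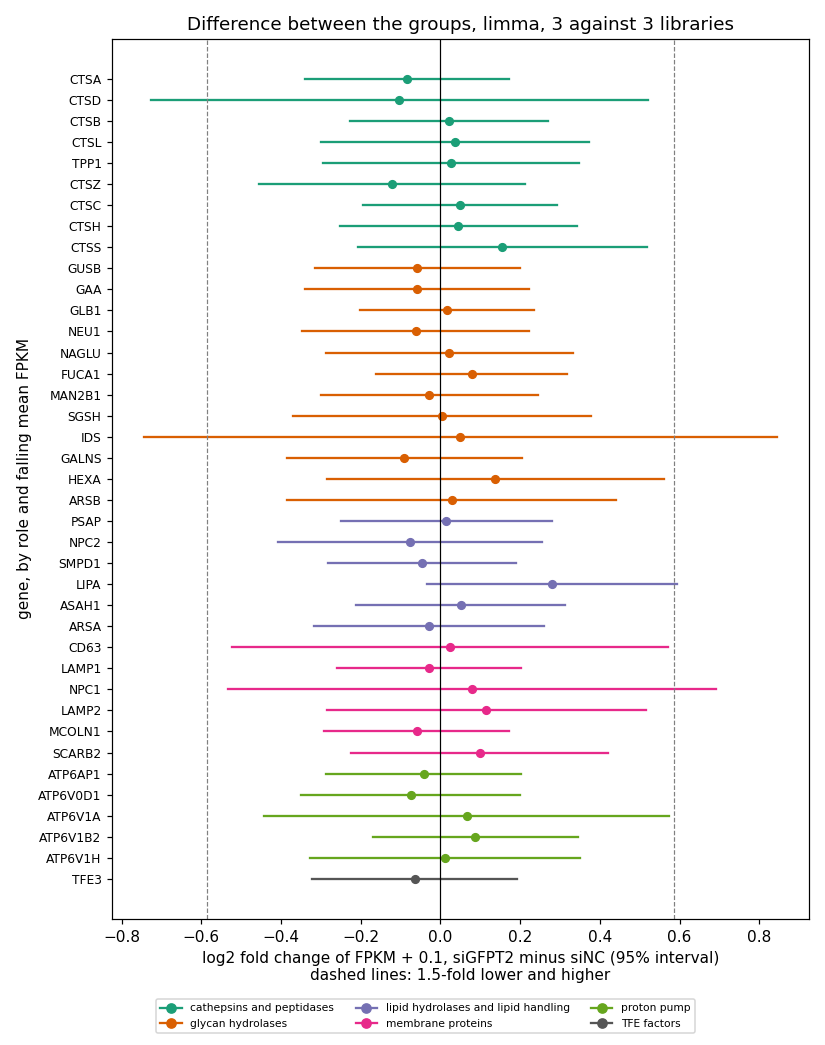
Log2 fold change of each of the 39 genes tested, siGFPT2 minus siNC, on the log2(FPKM + 0.1) scale, as points with 95% intervals from limma (3 libraries against 3), with genes coloured by role and dashed lines at 1.5-fold. The intervals of all 39 genes include 0, and those of CTSD, IDS, NPC1 and LIPA reach past 1.5-fold.

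The cathepsins and their peptidase companions degrade proteins in the lysosome, and all 9 were measured at 1 FPKM or more on average. Of these 6 had fold changes above 0 and 3 below, with a median of 0.027 and 0 called. CTSD, the main aspartic protease, stood at 41.06, 38.19 and 67.78 FPKM in the siNC libraries and 40.39, 56.97 and 37.30 in the siGFPT2 libraries. One library of each group, siNC replicate 3 and siGFPT2 replicate 2, was high, and the other 4 lay together, so the groups overlapped. Its log2 fold change was -0.10 ± 0.26 (SE), with an interval of -0.73 to 0.52, and -0.03 (-0.23 to 0.17) without those 2 libraries. CTSL, a cysteine protease, had the same 2 highest libraries, with 24.08, 24.41 and 30.48 FPKM under siNC and at 25.51, 30.45 and 24.86 under siGFPT2 (0.04, -0.30 to 0.37). CTSZ, a carboxypeptidase, stood at 11.22, 10.47 and 13.44 FPKM and at 10.13, 12.08 and 9.98, and had the lowest fold change of the list (-0.12, -0.46 to 0.21). These protease genes thus shared the high values in the same pair of libraries, 1 from each group.

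CTSA, a carboxypeptidase that also protects neuraminidase and galactosidase in a complex, was the most abundant of this role by FPKM, at 69.13, 64.07 and 73.00 in siNC and 64.23, 69.32 and 60.95 in siGFPT2. CTSB, a cysteine protease, stood at 47.29, 42.40 and 49.47 FPKM and at 46.18, 48.68 and 46.19. Both genes overlapped between the groups, with fold changes of -0.08 (-0.34 to 0.17) and 0.02 (-0.23 to 0.27). CTSC, which activates serine proteases of granules, ran from 7.53 to 8.51 FPKM over the 6 libraries, and CTSH, an aminopeptidase, from 5.24 to 6.42. CTSS, a protease best known from antigen-presenting cells, was low, at 1.16 to 1.51 FPKM from 176 to 284 fragments. TPP1, a tripeptidyl peptidase, stood apart from most of this role in direction: it was lowest in siNC replicate 3 (12.48 FPKM) and siGFPT2 replicate 2 (13.33), against 14.68 to 16.26 in the other 4.

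Glycan hydrolases remove sugars and sulfates from glycoproteins, glycolipids and glycosaminoglycans. All 12 were tested, with 7 fold changes above 0, 5 below, a median of 0.010 and 0 called. GLB1, the galactosidase, was the steadiest member, at 18.96, 18.02 and 18.65 FPKM in the siNC libraries and 18.24, 19.15 and 18.90 in the siGFPT2 libraries. Its highest library exceeded the lowest 1.06 times, and its fold change was 0.02 (-0.20 to 0.24). IDS, a sulfatase of heparan and dermatan sulfate, was the least steady, at 8.46, 8.57 and 4.17 FPKM under siNC and at 8.44, 4.95 and 8.05 under siGFPT2, a range of 2.06 times. Here the same pair of libraries that was high for CTSD was low, and the remaining 4 lay within 8.05 to 8.57 FPKM. The log2 fold change of IDS was 0.05 with all libraries (-0.74 to 0.84), and -0.05 (-0.25 to 0.16) without that pair.

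GUSB, the glucuronidase, was the most abundant glycan hydrolase by FPKM, at 39.76, 33.88 and 39.10 in siNC and 35.90, 37.57 and 34.62 in siGFPT2. NEU1, the sialidase that starts the removal of sialylated glycans, stood at 16.11, 14.80 and 17.79 FPKM and at 14.96, 17.05 and 14.61. The groups of both genes overlapped, with fold changes of -0.06 (-0.32 to 0.20) and -0.06 (-0.35 to 0.22). NAGLU and SGSH act in sequence with other enzymes on heparan sulfate. They deviated in opposite directions: NAGLU was highest in siNC replicate 3 (15.84 FPKM) and siGFPT2 replicate 2 (15.83) of a range from 12.66, while SGSH was lowest there (9.51 and 10.73) of a range up to 13.75.

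GAA, whose promoter holds the full motif at 2 places, stood at 21.67, 20.84 and 17.45 FPKM in the siNC libraries and 19.95, 18.62 and 18.80 in the siGFPT2 libraries (-0.06, -0.34 to 0.22). GALNS, with 1 copy of it, stood at 5.35, 5.10 and 4.36 FPKM and at 4.82, 4.38 and 4.65 (-0.09, -0.38 to 0.20). For both, siNC replicates 1 and 2 were the highest libraries and the groups overlapped through siNC replicate 3. FUCA1, the fucosidase, ran from 12.70 to 14.34 FPKM, and MAN2B1, the mannosidase, from 10.77 to 13.38. HEXA, the alpha subunit of hexosaminidase, ran from 1.05 to 1.44 FPKM (368 to 608 fragments), and ARSB, a sulfatase of dermatan and chondroitin sulfate, from 0.89 to 1.15 (192 to 233 fragments). These last 2 were the lowest of the role, and their wide intervals of -0.28 to 0.56 and -0.38 to 0.44 excluded a 1.5-fold change, narrowly so for HEXA. With the replicate number as a block they reached 0.72 and 0.62, past 1.5-fold. The interval of HEXA also passed it with a pseudocount of 0.01 FPKM, at 0.61. Outside this role, the intervals of ATP6V1A and CD63 came nearer to 1.5-fold than that of HEXA in the fit as reported, each reaching 0.57.

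The lipid group held the most abundant gene of the list and the one with the largest fold change. PSAP, the precursor of the saposins that help hydrolases reach their lipid substrates, stood at 419.31, 389.65 and 376.62 FPKM under siNC and at 401.69, 396.43 and 398.14 under siGFPT2, within 1.11 times over all libraries. Its log2 fold change was 0.014 (-0.25 to 0.28), and it rested on 27212 to 34431 fragments per library. NPC2, the soluble cholesterol carrier, was next, at 131.89, 118.81 and 149.50 FPKM and at 119.23, 143.25 and 117.03, high in the same pair of libraries as CTSD (-0.08, -0.41 to 0.26). The role had 3 fold changes above 0 and 3 below, a median of -0.007 and 0 called.

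LIPA, the acid lipase that frees cholesterol and fatty acids from lipoprotein lipids, stood at 12.88, 16.47 and 16.24 FPKM in the siNC libraries and 18.09, 17.36 and 19.67 in the siGFPT2 libraries. Each siGFPT2 library was above each siNC library, and siNC replicate 1 was well under all others. The means were 15.2 ± 2.01 and 18.4 ± 1.18 FPKM (SD, n = 3 each), a log2 fold change of 0.28 ± 0.13 (SE), short of the threshold in limma (unadjusted p = 0.0732, adjusted p = 0.9999). Without siNC replicate 1 the value was 0.17 (-0.11 to 0.44), and with siNC replicate 3 and siGFPT2 replicate 2 left out it was 0.37 (0.06 to 0.68; unadjusted p = 0.0268, adjusted p = 0.7196). Over 16 other fits it stayed above 0, between 0.17 and 0.37, with adjusted p between 0.7196 and 1. LIPA is thus the member with the smallest p, was singled out after its values were seen, and is not a called gene.

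ASAH1, the ceramidase, stood at 5.53 to 6.54 FPKM, SMPD1, the sphingomyelinase, at 18.77 to 21.03, and ARSA, the sulfatase of sulfatide, at 4.61 to 5.60. Their groups overlapped, with fold changes of 0.05, -0.05 and -0.03. None of the 3 lipid enzymes other than LIPA thus showed siGFPT2 libraries above all siNC libraries.

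Membrane proteins of the lysosome had 4 fold changes above 0 and 2 below, with a median of 0.051 and 0 called. LAMP1 and LAMP2 are the heavily N-glycosylated proteins that line the inner face of the membrane. LAMP1 stood at 68.61, 63.56 and 61.39 FPKM under siNC and at 63.81, 62.38 and 63.38 under siGFPT2 (-0.03, -0.26 to 0.20). LAMP2 stood at 14.00, 17.74 and 12.99 FPKM and at 17.12, 13.45 and 17.83 (0.12, -0.28 to 0.51). LAMP1 was nearly level over the libraries, whereas LAMP2 fell into 3 high and 3 low libraries that cut across the labels. Splice forms of LAMP2 are summed in these values.

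CD63, a tetraspanin of late endosomes and lysosomes, stood at 168.74, 150.32 and 258.39 FPKM in the siNC libraries and 171.82, 227.58 and 175.84 in the siGFPT2 libraries. NPC1, the membrane transporter that takes cholesterol from NPC2, stood at 22.95, 22.13 and 13.18 FPKM and at 22.61, 15.50 and 22.56. The pair of libraries that was high for CD63 was low for NPC1, and for both genes the other 4 libraries lay close together. CD63 had a fold change of 0.02 (-0.52 to 0.57), and 0.13 (-0.08 to 0.33) without the pair, while NPC1 had 0.08 (-0.53 to 0.69) and 0.003 (-0.17 to 0.18). NPC1 and its partner NPC2 therefore deviated in opposite directions in siNC replicate 3 and siGFPT2 replicate 2. SCARB2, a membrane protein that sorts a hydrolase to the lysosome, ran from 6.90 to 8.57 FPKM, and MCOLN1 from 8.76 to 9.62, with fold changes of 0.10 (-0.22 to 0.42) and -0.06 (-0.29 to 0.17).

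Proton pump genes had 3 fold changes above 0 and 2 below, a median of 0.011 and 0 called. ATP6AP1, an accessory subunit needed for assembly, stood at 53.67, 46.48 and 47.54 FPKM under siNC and at 48.81, 47.33 and 47.03 under siGFPT2. ATP6V0D1 stood at 30.37, 26.69 and 31.22 FPKM and at 27.02, 30.50 and 26.26. Neither separated the groups (-0.04, -0.29 to 0.20, and -0.07, -0.35 to 0.20). ATP6V1A, the catalytic subunit, stood at 9.54, 10.63 and 6.73 FPKM and at 10.11, 7.44 and 10.44, low in the pair of libraries in which ATP6V0D1 was high (0.07, -0.44 to 0.57). ATP6V1B2, its partner in the catalytic ring, ran from 7.40 to 8.66 FPKM, and ATP6V1H, a regulatory subunit, from 4.68 to 6.43. For ATP6V1H the lowest library was siNC replicate 1 and the highest siNC replicate 3, with the siGFPT2 libraries between them.

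The transcription factors differed from each other in level rather than between groups. TFE3 stood at 25.84, 24.47 and 22.02 FPKM in the siNC libraries and 24.33, 21.93 and 22.81 in the siGFPT2 libraries (-0.06, -0.32 to 0.19). TFEB stood at 0.58, 0.46 and 0.42 FPKM and at 0.37, 0.46 and 0.40, from 57 to 86 fragments per library, and was under the minimum for testing. The groups overlapped for both genes, and in each library TFE3 was far above TFEB per kilobase of gene length. Protein activity and location, at which these factors are controlled, were not measured.

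**Figure D2:**
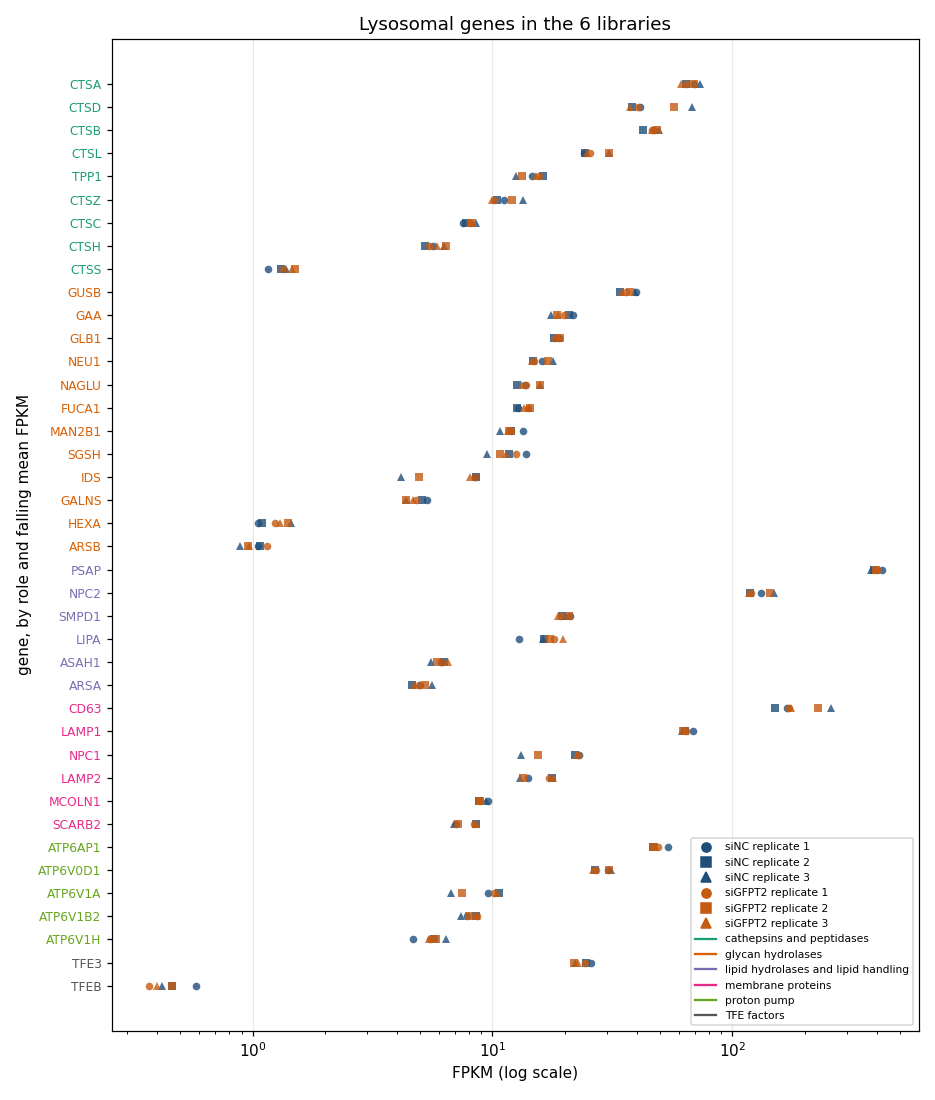
FPKM (log axis) of the 40 genes in each of the 6 libraries, with siNC in blue and siGFPT2 in orange, a marker shape for each replicate number, and gene names coloured by role. Points of a gene mostly lie together, with siNC replicate 3 and siGFPT2 replicate 2 apart from the rest for CTSD, CD63, IDS and NPC1, and the genes range from TFEB under 1 FPKM to PSAP at a mean of 397.

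The order of levels between genes depended on the length that stands behind each FPKM value. That length, recovered from the steps of the values, exceeded the principal mRNA of GENCODE 29 by a median factor of 2.27, with factors from 0.998 for FUCA1 to 13.0 for CTSZ. CTSZ was counted over 19384 bases against an mRNA of 1495, and CTSC over 24849 bases against 1921. Per kilobase of mRNA, the same fragments gave 145 for CTSZ in place of 11.2 FPKM, and 104 for CTSC in place of 8.05. CTSZ thereby moved from rank 25 to rank 5 of the 40 genes, and CTSC from rank 29 to rank 11. The values per kilobase of mRNA take every fragment as coming from that mRNA, which was not tested. All exons of GENCODE 29 cover 2038 bases for CTSZ and 11421 for CTSC, fewer than were counted over. Fragments from outside the mRNA would make these values and ranks too high. PSAP, CD63, NPC2 and CTSA held ranks 1 to 4 on both scales, and TFEB, ARSB, CTSS and HEXA were the lowest 4 on both. TFE3 exceeded TFEB on both scales as well, at 23.6 against 0.447 FPKM and 29 against 1.28 per kilobase of mRNA. The length of a gene is the same in every library, so fold changes between the groups do not depend on this choice except through the pseudocount and the minimum level.

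**Figure D3:**
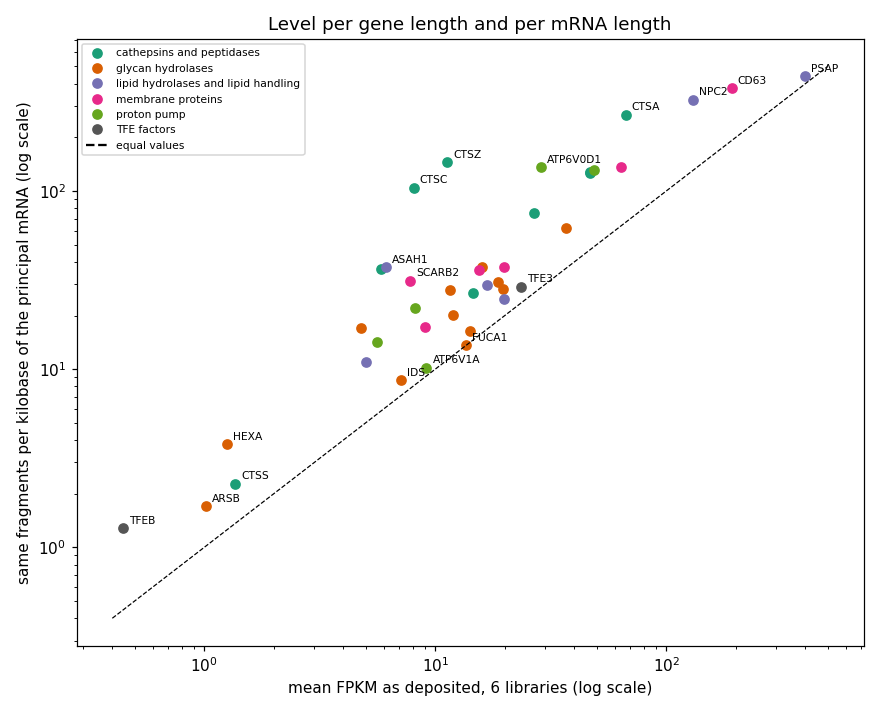
Mean FPKM over the 6 libraries (horizontal, log axis) against the same fragments per kilobase of the principal mRNA (vertical, log axis) for the 40 genes, coloured by role, with a dashed line of equal values. CTSZ and CTSC lie farthest above the line, while PSAP, FUCA1 and ATP6V1A lie near it.

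The spread of these genes over the libraries followed a pattern that cut across the labels. In 16 of the 40 genes siNC replicate 3 and siGFPT2 replicate 2 were the 2 highest libraries, and in 12 they were the 2 lowest. Over all features tested these shares were 29.8% and 35.4%, against 40% and 30% of the lysosomal genes. The high group included 7 of the 9 cathepsins and peptidases (CTSA, CTSB, CTSC, CTSD, CTSH, CTSL and CTSZ), with HEXA, NAGLU, NEU1, FUCA1, ARSA, NPC2, CD63, ATP6V0D1 and ATP6V1H. The low group included TPP1, ARSB, IDS, SGSH, GALNS, GAA, ASAH1, LAMP1, LAMP2, NPC1, ATP6V1A and TFE3. Across the 39 genes tested, the deviations of these 2 libraries correlated with r = 0.96, and those of siNC replicate 3 and siNC replicate 2 with r = -0.92. The 6 deviations of a gene sum to 0, and genes of a library share its depth and RNA, so these coefficients are descriptions.

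The median deviation of cathepsins and peptidases was 0.12 in siNC replicate 3 and 0.11 in siGFPT2 replicate 2, and between -0.09 and -0.014 in the other 4 libraries. Membrane proteins had medians of -0.11 and -0.07 in those 2 libraries. They had medians between -0.02 and 0.07 in the other 4. The medians of these 2 roles thus differed in direction within 1 library, but genes of the same role did so as well. In siNC replicate 3, 2 of the 6 membrane proteins were above 0, with CD63 at 0.45 and NPC1 at -0.55. Of the 9 cathepsins and peptidases 8 were above 0 there, and TPP1 was at -0.22. Over all features tested the medians were -0.044 in siNC replicate 3 and -0.014 in siGFPT2 replicate 2.

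**Figure D4:**
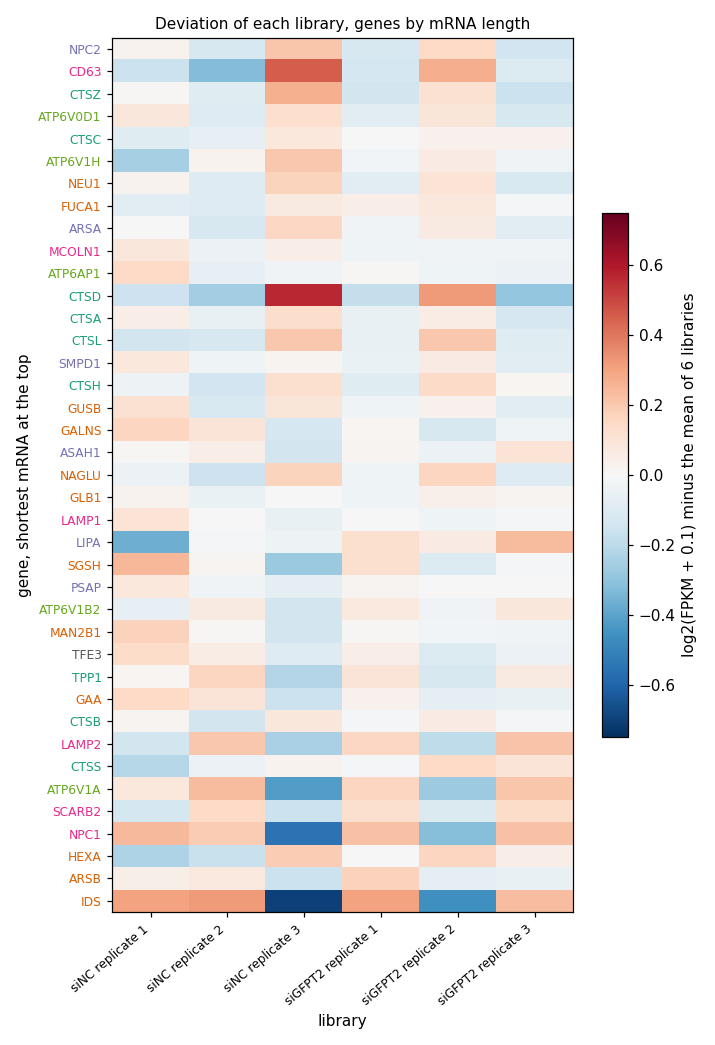
Deviation of each library from the mean of the 6 libraries, as log2(FPKM + 0.1), for the 39 genes tested, ordered from the shortest mRNA at the top to the longest at the bottom, with gene names coloured by role. siNC replicate 3 and siGFPT2 replicate 2 are red in most short genes and blue in many long ones, from 0.57 for CTSD to -0.70 for IDS in siNC replicate 3.

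Transcript length and GC content moved with these deviations. The mRNAs of the 40 genes ran from 1035 bases for NPC2 to 7619 for IDS, with a median of 2528, against a median of 3069 over 10682 features tested with a length. Across the 39 genes, the deviation correlated with log2 mRNA length at r = -0.73 in siNC replicate 3 and -0.67 in siGFPT2 replicate 2. The coefficient was 0.17, 0.68, 0.80 and 0.67 in siNC replicates 1 and 2 and siGFPT2 replicates 1 and 3. Over all features with a length the values were -0.70 and -0.70 in the first 2 libraries and 0.36, 0.67, 0.60 and 0.56 in the other 4. The correlation of the deviation with GC content across the 39 genes was 0.41, -0.46 and 0.38 in siNC replicates 1 to 3 and -0.51, 0.33 and -0.75 in siGFPT2 replicates 1 to 3. In siNC replicate 1 and siGFPT2 replicate 3 it was larger in size than that with length. Over all features with a length the correlation with GC content was 0.46, -0.37 and 0.27 in siNC replicates 1 to 3. It was -0.45, 0.26 and -0.64 in siGFPT2 replicates 1 to 3, so the pattern was not particular to the lysosomal genes. HEXA, at 5252 bases, was high in siNC replicate 3 despite its length, with a deviation of 0.19. The part of length and of GC content in these deviations was not tested. With both libraries left out, 36 of 39 intervals were narrower, and the width was 0.258 times that with all libraries for IDS, 0.291 for NPC1, 0.319 for CTSD and 0.376 for CD63.

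**Figure D5:**
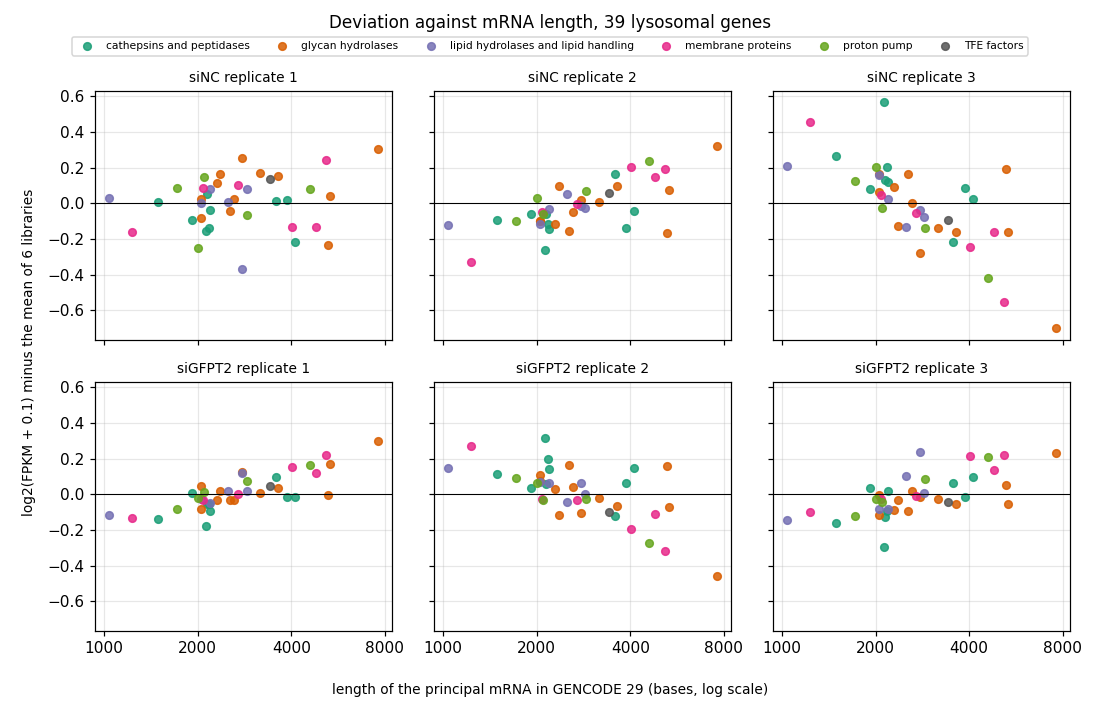
Deviation of each library from the mean of the 6 libraries (vertical, log2) against the length of the principal mRNA (horizontal, bases, log axis), 1 panel a library and 1 point for each of 39 genes, coloured by role. The points fall with length in siNC replicate 3 and siGFPT2 replicate 2, and rise with it in siNC replicate 2 and in siGFPT2 replicates 1 and 3.

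The 6 genes with the core motif in their promoter were compared with the other genes whose promoter was searched. CTSA, GALNS, GAA, LAMP1, MCOLN1 and ATP6V0D1 had fold changes between -0.09 and -0.03, with 0 above 0 and a median of -0.067. Of the 21 genes tested without the core, 12 were above 0, with a median of 0.023. After centring, which shifts all genes alike, 4 of the 21 were above 0 (median -0.030, against -0.12 for the 6). Without siGFPT2 replicate 1 there were 8 (median -0.033, against -0.068 for the 6). With quantile normalization, with limma-voom, and without siNC replicate 2, siGFPT2 replicate 2 or both libraries that stand apart, the median of the 21 was also below 0. In each of these the median of the 6 was lower still, between -0.092 and -0.057. Leaving out siNC replicate 1, which was the highest library for LAMP1, MCOLN1, GAA and GALNS, gave 2 of the 6 above 0 and a median of -0.031. The mRNAs of the 6 genes held 55.2% to 64.1% GC, and those of the 21 others 42.8% to 64%. Deviations correlated with GC content in each library, as given above, and its part in this contrast was not tested. None of the 6 was called, each interval included 0, and the contrast of these genes with the others was noted after their values were seen and carries no test.

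Further genes of the pathway gave the same count. In other lists of lysosomal, sorting, control and autophagy genes, 123 of 142 were tested and 0 were called, with 0 under an unadjusted p of 0.05 by limma, 79 fold changes above 0, 44 below and a median of 0.043. Other hydrolases and activators had 21 above 0 and 12 below (median 0.037), other membrane proteins 13 and 9 (0.059), other proton pump subunits 10 and 3 (0.085), tagging and sorting 7 and 6 (0.005), TFE control 12 and 7 (0.007) and autophagy 16 and 7 (0.043). In each of these lists 0 genes passed the test in either direction. Only PPT1 and SQSTM1, 2 of the 123 tested (1.63%), had every siGFPT2 library above every siNC library, against 2.16% of all features in that direction.

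Fold changes of other hydrolases and activators named by role were 0.07 for GLA, 0.13 (-0.11 to 0.37) for PPT1, whose groups did not overlap, 0.03 for GM2A and 0.08 for CTSV. The receptors for the mannose phosphate tag stood at 31.43, 32.76, 20.82, 32.78, 26.62 and 31.98 FPKM for M6PR and 12.09, 12.56, 5.50, 11.67, 6.97 and 11.47 for IGF2R, in the order siNC replicates 1 to 3 and siGFPT2 replicates 1 to 3. Both were lowest in siNC replicate 3 and siGFPT2 replicate 2, with fold changes of 0.13 (-0.34 to 0.59) and 0.05 (-0.81 to 0.91). GNPTAB, which makes the tag, had 0.17 (-0.49 to 0.83).

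MTOR, the kinase that restrains the TFE factors, stood at 10.20, 9.47 and 4.84 FPKM in the siNC libraries and 8.87, 5.57 and 8.80 in the siGFPT2 libraries (-0.04, -0.80 to 0.73), low in the same pair of libraries. MITF, a relative of TFE3, stood at 4.75, 5.60 and 2.82 FPKM and at 5.40, 3.27 and 5.12 (0.09, -0.63 to 0.80). FLCN, which acts on the nutrient signal to TFEB and TFE3, had 0.05, and LAMTOR1, an anchor of that signal on the lysosome, -0.06. The autophagy receptor SQSTM1 stood at 43.44, 41.36 and 43.48 FPKM and at 43.84, 45.83 and 45.31, so that each siGFPT2 library was above each siNC library, by a log2 fold change of 0.07 (-0.15 to 0.29). MAP1LC3B had 0.06, ATP6AP2 0.15 and LAPTM4B 0.06. ATP6V0C, which forms the proton-conducting ring, was listed at 0.32 to 0.80 FPKM and was not tested. Of the 19 other proton pump subunits 13 averaged 1 FPKM or more, among them ATP6V0B at 10.90 to 18.40. Whether the low value of ATP6V0C reflects its level or reads lost in counting was not tested.

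Some values could hold reads of neighbouring genes. No label says whether the libraries keep strand, and in GENCODE 29 other genes share 52.7% of the exon bases of CTSD, 28.5% of CTSA, 21.2% of MAN2B1, 17.4% of IDS, 16.3% of HEXA and 14.4% of TPP1. The gene on the same strand that overlaps CTSD was at 0.14 to 0.42 FPKM and those that overlap IDS at 0.03 to 0.08 and at 0 to 0.28. Next to CTSA, PLTP on the opposite strand was at 91.56 to 112.71 FPKM and shares 200 exon bases with it. IDS and GUSB also have related sequences elsewhere in the genome, so their levels are uncertain to the extent that reads were split among them, which was not tested.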

How the data were processed

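The authors deposited 1 table of FPKM values per gene and library; FPKM is normalised for gene length and library size. HISAT2, featureCounts and DESeq2 are named, without versions, per the submitters' processing notes; neither build nor annotation is stated there. Per the labels' protocols, poly(A) RNA was selected by oligo(dT) and read from both ends. Symbols were taken from a table of gene names for 60463 of 60605 Ensembl identifiers. Gene models and mRNA lengths (the longest APPRIS principal transcript) are those of GENCODE 29.

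Depth was recovered as the value that makes FPKM times length whole. Where GENCODE 29 exon lengths left reads that were not whole within 0.0001 (17042 of 36981 features above 0), the smallest length that did was used; for 2 none was found. Wholeness is therefore partly built in.

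Groups were compared on log2(FPKM + 0.1) by limma (version 3.58.1; R version 4.3.3), with a mean-variance trend, group as the only term, features averaging 1 FPKM or more, two-sided p-values and Benjamini-Hochberg adjustment over all 12896 features. Fold changes on this scale understate changes of low genes. The script was tested on simulated data. Members and lists were chosen with earlier results of these data known. Named genes are GFPT2, the 40 members and genes of the other lists picked by role, some of which are not reported here; other genes are named as markers or as neighbours that overlap a member.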

Additional observations from a re-analysis of the deposited data

How the results depend on the processing

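No feature passed an adjusted p of 0.05 by limma under any of the 16 alternatives, the 39 genes tested included. Features with an unadjusted p under 0.05 numbered 84 as reported, 754 with no filter on low values, 16 with a mean of at least 5 FPKM, 751 without siNC replicate 3 and siGFPT2 replicate 2, and 50 to 520 when 1 library was left out, the highest without siNC replicate 3. Among the 39 genes the count was 0 as reported, 1 (LIPA) without both of those libraries, and 0 to 1 with 1 library left out. The replicate number as a block gave 63 such features and 0 among the lysosomal genes, and changed no call. Deviations of same-numbered libraries from their group means correlated at 0.47, -0.72 and -0.57, and those of siNC replicate 3 and siGFPT2 replicate 2 at 0.79. These deviations sum to 0 within a group, so the coefficients depend on each other. They cannot show whether same-numbered libraries were prepared together.

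Centring on library medians shifted all fold changes by -0.05, left 9 of the 39 above 0, and gave medians of -0.036 for all of them, -0.026 for cathepsins and peptidases, -0.0427 for glycan hydrolases, -0.060 for the lipid genes, -0.0016 for membrane proteins and -0.0416 for the proton pump. The glycan hydrolase median was -0.0519 without both libraries. With 1 library left out, medians ran from -0.018 to 0.022 (all), -0.044 to 0.042 (glycan) and -0.031 to 0.029 (pump).

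Small fold changes changed sign, and the cause was not tested. With centring they were CTSB -0.031, CTSC -0.0041, CTSH -0.0083, CTSL -0.017, TPP1 -0.026, GLB1 -0.036, NAGLU -0.030, ARSB -0.024, IDS -0.0028, SGSH -0.050, ASAH1 -0.0024, PSAP -0.038, CD63 -0.030 and ATP6V1H -0.042. Quantile normalization gave CTSH -0.0025, ARSB -0.080, SGSH -0.023 and ATP6V1H -0.037. The limma-voom fit on recovered reads gave CTSB -0.0023, GLB1 -0.0071, NAGLU -0.0006, SGSH -0.021, PSAP -0.010, CD63 -0.0014 and ATP6V1H -0.013. Without both libraries the values were TPP1 -0.0068, ARSB -0.0009, IDS -0.046, SGSH -0.081, ARSA 0.0032 and PSAP -0.015. With 1 library left out the ranges of genes that changed sign were CTSB -0.041 to 0.070, CTSD -0.29 to 0.16, CTSH -0.017 to 0.11, CTSL -0.055 to 0.15, TPP1 -0.075 to 0.11, GLB1 -0.0033 to 0.037, NAGLU -0.053 to 0.11, NEU1 -0.13 to 0.0059, MAN2B1 -0.10 to 0.051, ARSB -0.049 to 0.074, IDS -0.29 to 0.29 and SGSH -0.13 to 0.13. They were GAA -0.15 to 0.0031, ASAH1 -0.0045 to 0.088, ARSA -0.094 to 0.043, PSAP -0.020 to 0.058, NPC2 -0.17 to 0.0091, LAMP1 -0.064 to 0.017, NPC1 -0.18 to 0.26, CD63 -0.13 to 0.26, ATP6V1A -0.13 to 0.22, ATP6V1H -0.11 to 0.12 and ATP6AP1 -0.082 to 0.022 for the rest.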
